A study of Drosophila melanogaster with 3 samples.

Results

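Insensitive, the product of the insv gene, was mapped by chromatin immunoprecipitation and sequencing (ChIP-seq) in Drosophila melanogaster embryos. There was 1 group of 3 biological replicates: whole embryos of both sexes, 0 to 24 h old, from a transgenic line in which insv carries GFP at its C terminus, precipitated through the GFP. Chromatin had been sonicated to a size range given as 200 to 800. The sources used here do not state whether the embryos also carried untagged insv, and the control library was not analysed here. Each replicate came with a list of 30000 regions, peaks and background together, as did the pooled replicates. The thresholded list, the peaks kept after a test of reproducibility between replicates, was 2.44% of the length of the pooled list. The genes described are 6 of the 13945 protein-coding genes on the main chromosome arms: Prosap, Homer, dlg1, brp, Nrx-1 and Nlg1, all of them genes of synaptic scaffolds or synaptic adhesion. They were chosen by the measured signal value at Prosap, which had the strongest peak of the pooled list, and by their synaptic roles. A region was assigned to a gene when it overlapped the gene or lay within 5 kb of it, which gave 61 pooled regions and 3 thresholded peaks for the 6 genes. The replicate lists gave 71, 58 and 57 regions. Ranks and signal values at these genes are therefore descriptions with no test, and with 1 group there was no condition to compare.

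Insensitive is a BEN-domain protein that binds DNA in a sequence-specific way, prefers a palindrome, and acts as a transcriptional co-repressor, including in the Notch pathway of the developing nervous system. Synapses are built from scaffolds that face each other across the cleft. On the receiving side, Shank (Prosap in Drosophila), Homer and Discs large (dlg1) hold receptors and adhesion proteins in place, and on the releasing side Bruchpilot (brp) and Liprin-alpha organise the active zone where vesicles fuse. Neurexin (Nrx-1) and Neuroligin (Nlg1) span the cleft and bind each other.

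The DNA under 4 regions is shown first, for the palindrome, its core and the other motifs found there. All 4 sequences are from the RefSeq Release 6 (dm6) genome, plus strand. At the start of dlg1 (chrX:11369441-11369664, from the peak's left edge to the base before the first annotated transcript start), the capitals mark, from left to right, the Insensitive palindrome CCAATTGG, an 8-mer CAATCAGA read on the minus strand, and GGTCACAC, the element of the promoter factor M1BP.
dlg1 start: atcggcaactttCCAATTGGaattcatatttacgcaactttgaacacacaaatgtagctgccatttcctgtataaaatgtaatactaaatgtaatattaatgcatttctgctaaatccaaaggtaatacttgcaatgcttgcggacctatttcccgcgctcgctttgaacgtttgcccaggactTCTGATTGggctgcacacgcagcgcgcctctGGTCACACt
In the first part of the Liprin-alpha gene (chr2L:6724399-6724519, an intron), the window holds the summit of the weaker of a pair of strong regions next to Homer, and the capitals mark CAATTG, the core of the palindrome.
Liprin-alpha intron: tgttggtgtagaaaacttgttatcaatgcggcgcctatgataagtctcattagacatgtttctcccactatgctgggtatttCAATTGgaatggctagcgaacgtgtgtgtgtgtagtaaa
Downstream of Nrx-1, inside the Pfdn5 gene (chr3R:22487448-22487648), the capitals mark both copies of the palindrome in the strongest pooled region assigned to Nrx-1.
Pfdn5: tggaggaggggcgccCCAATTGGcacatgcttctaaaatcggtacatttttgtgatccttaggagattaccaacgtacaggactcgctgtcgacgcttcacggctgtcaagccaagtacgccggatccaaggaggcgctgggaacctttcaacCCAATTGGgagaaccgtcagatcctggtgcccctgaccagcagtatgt
Upstream of caps (chr3L:13228015-13228215), a synaptic adhesion gene outside the 6 that had a thresholded peak, the capitals mark both copies of CCAATAAG, the site of the Elba complex of BEN-domain proteins, read on the minus strand.
caps: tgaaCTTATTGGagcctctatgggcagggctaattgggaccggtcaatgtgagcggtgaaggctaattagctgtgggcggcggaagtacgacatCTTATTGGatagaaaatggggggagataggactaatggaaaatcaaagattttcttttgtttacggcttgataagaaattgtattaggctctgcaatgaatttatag

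With flanks of 5 kb, the 3 scaffold genes of the receiving side ranked above the 3 other genes in every replicate. Prosap (FBgn0040752, 80.4 kb long, minus strand) had its best region at rank 2 in replicate 1, rank 1 in replicate 2 and rank 1 in replicate 3. dlg1 (FBgn0001624, 40.1 kb, plus strand) followed at ranks 85, 54 and 26, and Homer (FBgn0025777, written homer in the annotation, 4.0 kb, minus strand) at 453, 683 and 460. The ranges of these 3 genes over the replicates did not overlap each other. The place of Homer rests on regions inside its neighbour Liprin-alpha, a gene of the releasing side with the same 3 ranks. With flanks of 1 kb the best rank of Homer in replicate 3 was 7534, against 2240 for Nrx-1, and over the gene bodies alone its geometric mean rank was 12652, against 4720 for Nrx-1 and 11230 for Nlg1. Prosap too owes its place to DNA in front of the gene, with a geometric mean rank of 1534 over the gene body alone. For Nrx-1 (FBgn0038975, 18.5 kb, plus strand) the best ranks were 2602, 3583 and 2133, for brp (FBgn0259246, 37.8 kb, plus strand) 1645, 14329 and 6540, and for Nlg1 (FBgn0051146, 36.6 kb, plus strand) 8722, 18348 and 8849. Nrx-1 and brp overlapped in these ranges, as did brp and Nlg1, so that neither pair can be ordered beyond the spread between replicates. For each of these 3 genes the best region lay at a different position in each replicate, so these ranks do not follow 1 region. The geometric mean rank was 1.26 for Prosap, 49.2 for dlg1, 522 for Homer, 2709 for Nrx-1, 5362 for brp and 11230 for Nlg1, with SDs of the log10 rank of 0.17, 0.26, 0.10, 0.11, 0.48 and 0.18 (n = 3 for each). brp varied the most, since 1 library, replicate 1, placed a region at 1645 where replicate 2 had none above 14329.

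**Figure D1:**
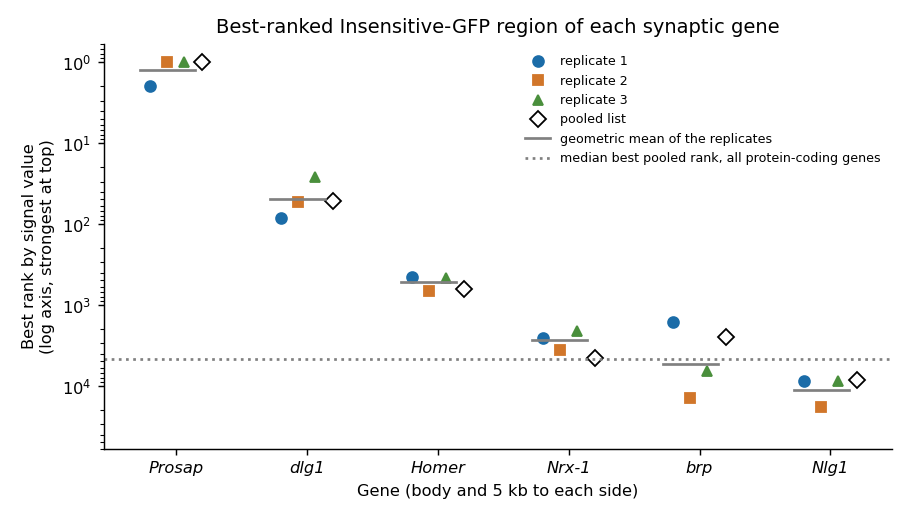
Best rank by signal value (log axis, strongest at the top) of the regions overlapping each gene or within 5 kb, in the 3 replicate lists (filled symbols) and the pooled list (open diamonds); grey bars are geometric means of the replicates and the dotted line is the median best pooled rank of all protein-coding genes, 4694. The symbols of Prosap, dlg1 and Homer lie in separate bands above the line, while those of brp spread from 1645 to 14329.

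Set against all protein-coding genes, the 3 scaffold genes were also those with a thresholded peak. A thresholded peak overlapped or lay within 5 kb of 3 of the 6 genes, beside 11.7% of all protein-coding genes, and nothing is read from this share because the signal at these lists chose the set. Long genes collect more regions by this rule. Of the genes of at least 15 kb, 21.0% had such a peak, and so did 2 of the 5 genes of the set that reach this length. A thresholded summit lay within 1 kb of an annotated start for the same 3 genes, against 4.38% of all genes. Among the 1000 strongest regions of a replicate, Prosap, dlg1 and Homer had at least 1 in each of the replicates. The shares of all genes were 16.3% in replicate 1, 15.4% in replicate 2 and 17.3% in replicate 3. By best pooled rank, 0.00717% of all genes did as well as Prosap or better, which is Prosap alone, 1.06% did as well as dlg1, 10.8% as Homer, 33.2% as brp, 49.2% as Nrx-1 and 65.1% as Nlg1. The last 3 genes thus sat within the bulk of the genome, whose median best pooled rank was 4694. The lowest signal value in the thresholded list was 75.0, with Homer just inside it at 84.1 and brp the nearest of the others at 44.6.

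Prosap encodes the only Shank-family protein of the fly, a scaffold that links receptors to the actin cytoskeleton beneath the postsynaptic membrane. Its thresholded peak (chr2R:14140896-14141412, 517 bp, 39.7% G+C) had a signal value of 1202 and a summit 182 bp upstream of the single annotated start. The signal value was 535 in replicate 1, 380 in replicate 2 and 282 in replicate 3. The scale of this value is not stated, so it is not compared between lists here and no ratio of it is given. The nearest rival was the region upstream of Dpm3, which had 1159 in the pooled list, 363 in replicate 2 and 278 in replicate 3, each just below Prosap. In replicate 1 Dpm3 was ahead, with 538.

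Each replicate listed a pair of summits in front of Prosap. The stronger lay 178 bp upstream of the start in replicate 1, 171 bp in replicate 2 and 193 bp in replicate 3, with a mean of 181 ± 11.2 bp (SD, n = 3). The weaker lay 377, 375 and 394 bp upstream, with a mean of 382 ± 10.4 bp (SD, n = 3). The spacing between the members of the pair varied less than either position, at 201 ± 2.52 bp (SD, n = 3). The weaker summits would by themselves have been among the strongest of the series, at rank 4 in replicate 1, rank 6 in replicate 2 and rank 11 in replicate 3. Replicates 1 and 2 gave both summits within 1 interval, replicate 3 listed 2 separate intervals, and the pooled list kept only the summit nearer to the start. All of these intervals ended before the first base of the gene except the pooled one, which reached just across it.

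**Figure D2:**
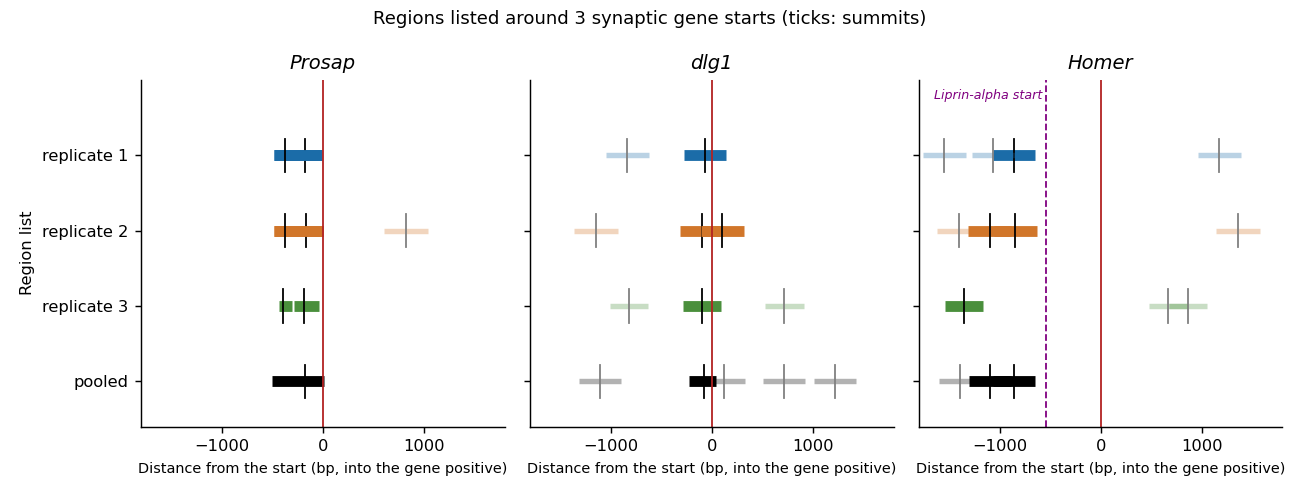
Regions listed within about 1.7 kb of the starts of Prosap, dlg1 and Homer, by distance from the first annotated start (bp, positive into the gene), for the 3 replicates and the pooled list; thick bars are regions among the 1000 strongest, pale bars the others, and ticks are summits. Prosap shows a pair of summits near 181 and 382 bp upstream in each replicate, dlg1 has a summit within 98 bp upstream in each, and the Homer regions among the 1000 strongest lie beyond the Liprin-alpha start, 544 bp away, with weaker ones inside Homer in the replicates.

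Away from its start, Prosap held no other thresholded peak. The pooled list held 23 regions over the gene and its flanks, or 2.54 per 10 kb, beside 2.24 per 10 kb over the main arms. The second strongest lay in an intron 10414 bp into the gene, at rank 1950 with a signal value of 48.2. The next, at rank 2512, was 67415 bp into the gene, also in an intron, and a further one, at rank 2695, was in the 3′ UTR. The median signal value of the 23 regions was 24.6, against 25.5 for the whole pooled list.

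The 4 protein-coding genes with a start within 20 kb of the Prosap summit had no thresholded peak within 5 kb of those starts. Upstream, the nearest protein-coding gene was Rcd1, 7361 bp away. These starts were those of Rcd1, pea, CG13016 and CG13018, between 11624 and 16678 bp from the summit. pea encodes a splicing helicase. Within 5 kb of any of these starts the best pooled rank was 2917, with a signal value of 42.4, a region that all 4 genes share. In the replicates the best rank near Rcd1 and pea was 4726, 1307 and 506, so the weakest and strongest replicate differed widely here. Downstream, Prosap ended 100 bp from the end of mam, which encodes Mastermind, a co-activator of Notch target genes. CG42287 and CG42288 lie inside Prosap.

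**Figure D3:**
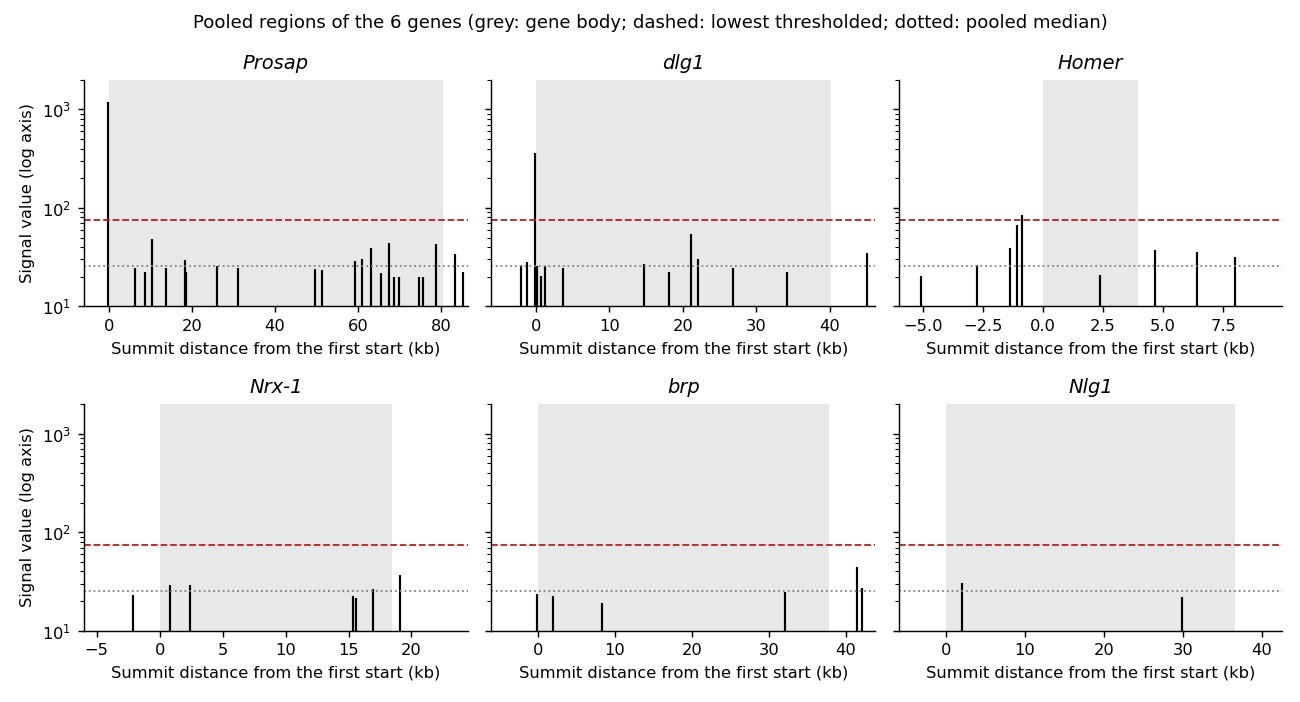
Signal value (log axis) of each pooled region overlapping a gene or within 5 kb, by the distance of its summit from the first annotated start (kb); grey marks the gene body, the dashed line the lowest thresholded value, 75.0, and the dotted line the pooled median, 25.5. A single region per gene rises above the dashed line at Prosap, dlg1 and Homer, and none does at Nrx-1, brp or Nlg1.

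dlg1 encodes Discs large, a membrane-associated guanylate kinase scaffold of synapses and of epithelial junctions. Its thresholded peak (chrX:11369441-11369702, 43.9% G+C) had rank 52 and a signal value of 359, with a summit 80 bp upstream of the first of 7 annotated starts. In the replicates the signal values were 119, 126 and 116, and the summits lay 67, 96 and 98 bp upstream, a mean of 87.0 ± 17.3 bp upstream (SD, n = 3). The upstream neighbour, Tim8, which encodes a mitochondrial import protein, ended 382 bp before dlg1 began. The next pooled region of dlg1 was far weaker, at rank 1425 and 54.0, in an intron 454 bp from another of its starts. The gene and its flanks held 14 pooled regions, or 2.79 per 10 kb.

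The Homer peak is shared with a gene of the opposite side of the synapse. Homer encodes an adaptor that binds Shank and metabotropic glutamate receptors (known from mammals), and it is transcribed away from Liprin-alpha (FBgn0046704), an active-zone scaffold gene, with 544 bp between the starts. The thresholded peak (chr2L:6724010-6724425, rank 631, 51.4% G+C) had its summit 859 bp upstream of Homer and 315 bp inside Liprin-alpha, in the 5′ UTR, so by position it lies nearer to Liprin-alpha. Replicate 1 had this region at rank 453 with a signal value of 45.6, and replicate 2 at rank 683 with 31.1. Replicate 3 had no overlapping region. Its strongest region here, at rank 460 with 26.4, lay 813 bp inside Liprin-alpha, in an intron, so the rank of Homer in replicate 3 rests on another position. The pooled list had another region at rank 914, with its summit 556 bp inside Liprin-alpha. Of the regions overlapping it, those with the nearest summit stood at rank 3375 in replicate 1, rank 998 in replicate 2 and rank 460 in replicate 3. The regions at rank 453 in replicate 1 and rank 683 in replicate 2 overlapped it as well. The replicate 3 summit, however, lay outside this pooled region. It was nearer to the summit of a weaker pooled region, at rank 3827 and 851 bp inside Liprin-alpha. The regions with summits nearest to that of the weaker one stood at rank 20255 in replicate 1 and rank 29228 in replicate 2. The regions at rank 3375 in replicate 1 and rank 998 in replicate 2 overlapped it too. Rank 460 therefore does not place the pooled region at rank 914 in replicate 3. Homer itself spans little DNA, so its flanks set its count: 9 pooled regions, or 6.44 per 10 kb with the flanks and 2.52 per 10 kb without them.

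Weak regions were found for brp and for the adhesion pair, Nrx-1 and Nlg1. For brp and Nrx-1 the strongest pooled region lay in a neighbouring gene. Bruchpilot is the main structural protein of the active zone of the fly. The strongest pooled region within 5 kb of brp, at rank 2465 and 44.6, was in the 3′ UTR of CG1888 downstream of it. Replicate 1 listed an overlapping region at rank 3317 and replicate 3 at rank 6540, and replicate 2 listed none. At the brp start itself, 111 bp upstream, the pooled list had a region at rank 18218 with 23.8, below the pooled median of 25.5. For Nrx-1, the presynaptic adhesion protein, the strongest pooled region (chr3R:22487390-22487805, rank 4584, 37.0) was in a coding exon of Pfdn5, a prefoldin subunit gene 70 bp downstream. It was listed at rank 11732 in replicate 1 and 2240 in replicate 3, and not in replicate 2. The best Nrx-1 region of each replicate lay elsewhere. It was in the 5′ UTR of Nrx-1 in replicate 1, its 3′ UTR in replicate 2 and a coding exon of CCT1 in replicate 3. A region in the 5′ UTR of Nrx-1 stood at rank 9939 with 29.3. Nlg1, the partner of Nrx-1, had only 2 pooled regions in 46628 bp, or 0.429 per 10 kb, the lowest density of the 6 genes. The stronger, at rank 8475 and 30.7, was in an intron 1959 bp from the start, and replicate 1 was the only replicate to list it, at rank 8722. In replicates 2 and 3 the best Nlg1 region lay 8602 and 16835 bp from the start.

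The strongest peak of the series held no Insensitive palindrome. CCAATTGG, searched on both strands over the whole region, was present in 17.5% of thresholded peaks and in 1.62% of pooled regions, and it was found in neither the Prosap region nor the Homer region. In the dlg1 region it began 132 bp left of the summit, as printed above. CAATCAGA, an 8-mer of no assigned factor that was added to the search because earlier results of these data had shown it, was found in the Prosap region, beginning 29 bp left of the summit on the minus strand, and in the dlg1 region, 40 bp right of the summit. It was present in 9.56% of thresholded peaks and 1.88% of pooled regions, and in 8 of the 25 strongest peaks, where the palindrome was in 6. From rank 26 to rank 100 the order was the other way, with CAATCAGA in 6 and the palindrome in 23 of 75 peaks, and among the 632 weaker thresholded peaks they were in 56 and 99. The Prosap region also held GAGAGAG, the repeat bound by GAGA factor, which was in 18.6% of thresholded peaks and 5.17% of pooled regions. GGTCACAC, printed in the dlg1 sequence, was in 5.19% and 1.18%. It was in 7.71% of windows from 250 bp before to 50 bp after the first start of protein-coding genes, above its thresholded share. None of the 7 motifs searched was found in the strongest Homer region or the strongest brp region.

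The weak region beyond Nrx-1 carried the palindrome, and more than once. Its copies began 135 bp left and 3 bp right of the summit, in the Pfdn5 sequence printed above. At least 2 palindromes were found in 12 pooled regions, or 0.04% of them, of which 8 were thresholded. The palindrome was also found among weak regions. Of the 485 pooled regions with it, 26.4% were thresholded, against 2.44% of all pooled regions, and their median rank was 5893. The Nlg1 region held the core CAATTG, present in 29.8% of thresholded and 16.1% of pooled regions and overlapping the palindrome wherever that occurs, and GAGAGAG. The other motifs searched were CCAATAAG, in 9.7% and 1.36%, and TATCGATA, the element of the promoter factor DREF, in 5.74% and 1.04%. In the windows at gene starts TATCGATA was in 9.37%, also above its thresholded share. The remaining motifs were below theirs, with CCAATTGG in 0.961%, CCAATAAG in 0.968%, CAATCAGA in 1.32%, GAGAGAG in 5.87% and CAATTG in 11.6%. Window and region lengths differ. A motif match is a description of these letters and not a bound site.

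Among 78 synaptic genes in 5 lists, 8 had a thresholded peak, and 4 of these are scaffold genes. The list of postsynaptic and membrane scaffolds had 4 of 11 genes with a thresholded peak (36.4%), 3 of which are among the 6 genes chosen here, and its median best pooled rank was 2370. The active zone list had 1 of 12 (8.33%, median rank 4577), which was Liprin-alpha through the peak it shares with Homer. Synaptic adhesion had 2 of 15 (13.3%, median rank 4138), neurotransmitter receptors 1 of 22 (4.55%, median rank 9607), and vesicle release and recycling 0 of 18 (median rank 7621). All lists together had a share of 10.3%, and 5 of 72 (6.94%) without the 6 chosen genes, beside the 11.7% of all protein-coding genes. With the 6 chosen genes included, the direction of this difference depended on the rule. Over gene bodies alone the lists had 6.41% against 4.19% of all genes, within 1 kb 8.97% against 6.34%, and by a summit within 1 kb of a start 7.69% against 4.38%. Without the 6 chosen genes, 3, 4 and 3 of the 72 had such a peak by these rules in turn. None of these is above the share of all genes, so the reversal was seen only with the chosen genes included. Synaptic genes are long, with a median of 24285 bp against 2166 bp for all genes, and of all genes of at least 15 kb 21.0% had such a peak. Of the listed genes of that length, 6 of 46 did.

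The other scaffold with a thresholded peak was scrib (FBgn0263289), which encodes Scribble, a partner of Discs large in cell polarity. Its peak had rank 217 and a signal value of 173, stood at ranks 252, 202 and 221 in the replicates, lay in an intron 567 bp from the start, and held none of the motifs searched. Among adhesion genes, caps (FBgn0023095), which encodes the leucine-rich repeat protein Capricious, had a peak at rank 141 with 216, at ranks 208, 113 and 100 in the replicates, 567 bp upstream of its start. Its copies of CCAATAAG began 106 and 16 bp left of the summit. CadN (FBgn0015609), the N-cadherin gene, had an intronic peak at rank 478 with 102 and ranks 501, 401 and 828. The peak assigned to nAChRalpha7 (FBgn0086778), an acetylcholine receptor subunit gene, had rank 576 with 89.1 and ranks 942, 544 and 505, but lay 160 bp upstream of the start of another gene, out, beyond the 3′ end of nAChRalpha7. Just outside the thresholded list was dlp, a glypican gene of the adhesion list, at pooled rank 775.

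**Figure D4:**
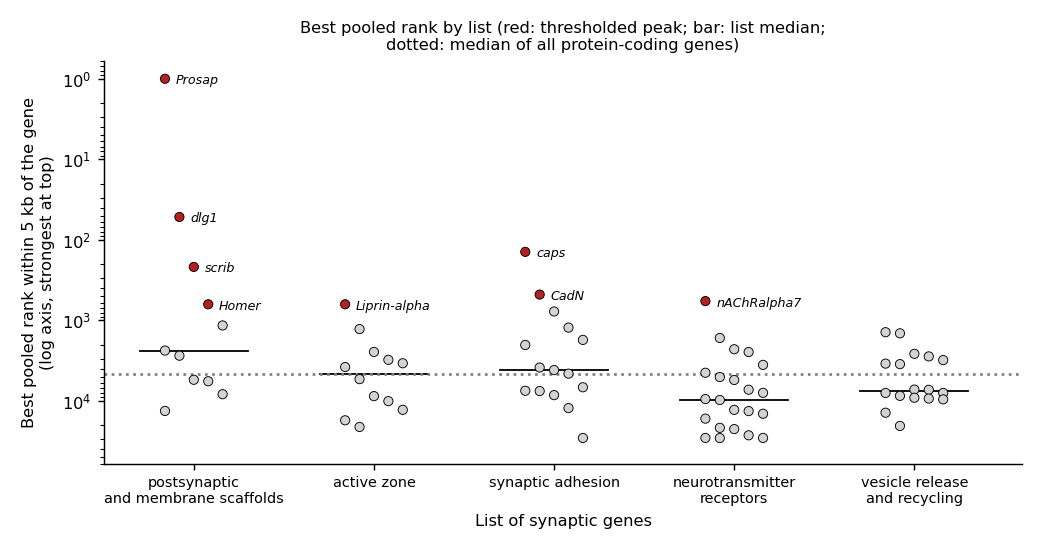
Best pooled rank (log axis, strongest at the top) of each synaptic gene by list, with a region overlapping the gene or within 5 kb; red points have a thresholded peak and are named, bars are list medians and the dotted line is the median of all protein-coding genes, 4694. The 8 red points include 4 of the 11 scaffold genes and none of the vesicle genes; Homer and Liprin-alpha share 1 peak, and 1 vesicle gene with no pooled region is not drawn.

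The peaks most like that of Prosap over the replicates were not at synaptic genes. Likeness was the sum over the 3 replicates of the absolute difference in log10 rank, and the 4 nearest peaks are necessarily others of the very top. Dpm3, which encodes a subunit of dolichol-phosphate mannose synthase, was closest, at 0.90, with ranks 1, 2 and 2 and a summit 180 bp upstream of its start. Pglym78, a phosphoglycerate mutase gene, followed at 1.43, with ranks 3, 3 and 6, tun at 2.03 with ranks 6, 9 and 4, and PH4alphaEFB, a prolyl 4-hydroxylase gene, at 2.06 with ranks 19, 4 and 3. CAATCAGA was present in the regions of Pglym78 and tun and not in those of Dpm3 and PH4alphaEFB, and CCAATTGG was in none of these 4. The regions of Pglym78 and tun also held CCAATAAG, which the Prosap region did not, and that of tun held CAATTG. The Dpm3 region held TATCGATA and GGTCACAC, and that of PH4alphaEFB none of the motifs searched.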

How the data were processed

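ChIP-seq region lists from 3 biological replicates, numbered by the labels, and from their pool were used as deposited for dm6. The authors deposited each list as regions with a signal value (column 7), a second score (column 9) and an offset that places the summit. The sources used here do not state whether replicates came from separate collections, nor the aligner, peak caller, reproducibility threshold or depth. Hence intervals for counting error were not computed. Column 7 ranked the regions within each list. The summit was the middle of the region for 99.6% of pooled regions and 83.3% of thresholded peaks, so it often marks a centre and not a measured maximum. Every thresholded peak was identical to a pooled region, and together they were the pooled regions down to rank 732.

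Genes, starts and exons came from Ensembl release 115 (BDGP6.54) and sequence from the RefSeq Release 6 genome, which is dm6; no region ran past the end of its arm. A region counted for a gene at 1 bp of overlap with the gene or its 5 kb flanks. Neighbouring and nearest genes were taken from the protein-coding genes only. Genes with no pooled region were placed last when medians of ranks were taken. Of 79 listed synaptic symbols 78 were matched, 4 of them through a synonym; the remaining one, VGlut1, was not used. Motifs were searched on both strands. Python 3.11.15, pandas 2.3.3, NumPy 2.4.6 and matplotlib 3.10.9 were used, and the interval code was tested on simulated data.

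The members, lists, motifs and rules were chosen with earlier results of these data known. The text names all 6 members, each listed gene with a thresholded peak, genes with a start within 20 kb of the Prosap summit, and the 4 peaks most like that of Prosap; dlp, the genes adjoining a member and the gene nearest to each named region were added after their values were seen. No test was run. Alternatives changed the flank, the overlap, the threshold, the ranking column, the motif window and the replicates used.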

Additional observations from a re-analysis of the deposited data

How the results depend on the processing

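The count of members with a thresholded peak, 3 as reported, stayed between 2 and 4. It lost Homer with the gene body alone, a stricter threshold, or without replicate 1 or 2, and gained brp at 10 kb. In counts of thresholded peaks, leaving out a replicate kept those peaks that overlapped a region among the 1000 strongest of both others. Homer was lost without replicate 1 or 2 because replicate 3, kept each time, had no region overlapping its peak. The Prosap peak depends on the flank: since the replicate regions end before the gene, its geometric mean rank over the gene body alone was 1534, and the number of members among the 1000 strongest of each replicate fell to 1. By column 9 Prosap ranked 1.0, but 189, 357 and 218 regions tie there, dlg1 among them. The middle of the strongest Prosap region lay 247, 244 and 163 bp upstream of its start in replicates 1, 2 and 3, a mean of 218.0 bp. Synaptic list genes with a thresholded peak numbered 5 for the gene body alone and 4 at the stricter threshold, when all protein-coding genes numbered 584 and 999. Within 1 kb of the gene, 7 list genes and 884 of all protein-coding genes had one, and by a summit within 1 kb of a start 6 and 611. With each replicate left out in turn, 6 to 8 list genes kept a peak. The palindrome lay within 100 bp of the strongest pooled summit of 1 member, Nrx-1. It was found for 2 members within 200 bp or over the whole region, which adds dlg1. For the strongest summits of replicates 1, 2 and 3 it was found for 0 within 100 bp. There the strongest Nrx-1 region was another one in each replicate, and the window misses the dlg1 copy. The added CAATCAGA was found at Prosap and dlg1 in each window and replicate tried. The rank of Homer moved to 12652 over the gene body alone and to 1326 within 1 kb. No paired analysis was possible because there is 1 group. The unknown depth limits every absence: a region missing from a list may be below what that library could show.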
